A study of Homo sapiens with 6 samples.

Results

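The genes of fatty acid synthesis, desaturation and oxidation were examined in MOLM14 cells treated with HSN748. A list of 41 genes was matched by symbol to the deposited gene table, and 39 of the 41 were found among its 13244 genes, while expression of ELOVL7 and ECI2 was not analysed here. All 39 passed the filter on low counts and were tested. The members were divided into 12 measured genes that make, desaturate or elongate fatty acids, 16 measured genes that oxidize them in mitochondria (ACAA1 in peroxisomes) and 11 others that activate fatty acids, feed acetyl-CoA and malate metabolism or build and break down lipid droplets.

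MOLM14 is an established acute myeloid leukemia (AML) cell line, and each culture carries the FLT3 ITD genotype, an internal tandem duplication that keeps this receptor tyrosine kinase active. HSN748 is an inhibitor of that kinase. RNA-Seq was performed on 3 cultures treated with 2 nM HSN748 (replicates 7, 8 and 9) and on 3 DMSO vehicle controls (replicates 1, 2 and 3), all for 24 hours in serum-supplemented medium. The triplicates are described as biologically independent, and they represent 1 cell line at 1 dose and 1 time. Total counts per culture lay between 35277785 and 47691631 with HSN748 and between 38363312 and 59279430 with DMSO.

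Cells build fatty acids in the cytosol from acetyl-CoA, which ACLY makes from citrate and ACSS2 from acetate. Acetyl-CoA carboxylase turns acetyl-CoA into malonyl-CoA, FASN joins these units into palmitate with NADPH, and desaturases and elongases remodel the chain. For oxidation, acyl-CoA synthetases activate the chain, the carnitine shuttle carries it into mitochondria, and a cycle of dehydrogenation, hydration, a further dehydrogenation and thiolysis releases acetyl-CoA. Malonyl-CoA blocks the entry step at CPT1, so that synthesis and oxidation are not usually run together. The transcription factor SREBP-1, encoded by SREBF1, drives many synthesis genes, and PPAR-alpha, encoded by PPARA, drives many oxidation genes.

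Levels are given as CPM, a gene's count relative to its library total after TMM scaling, which assumes most genes unchanged. Changes are log2 fold changes, HSN748 over DMSO, each with its standard error (SE). Adjusted p-values come from the quasi-likelihood test of edgeR over 13084 genes. A gene is called higher or lower at an adjusted p under 0.05. The difference between the treatments reached most of the transcriptome. Of all genes tested, 73.1% were called, 36.6% higher and 36.5% lower, and 31.9% were called with a log2 fold change beyond 1, 17.0% higher and 14.9% lower. Over all genes the median of log2 fold change was 0.01. Scaling moved the balance of calls beyond 1, which was 2230 higher and 1949 lower with TMM, 2809 against 1488 with upper-quartile factors and 3558 against 1129 on a scale of 11 reference genes.

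Myeloid identity was checked with 9 markers, of which 8 were measured. Their summed level lay between 3173 and 3246 CPM with HSN748 and between 1564 and 1674 CPM with DMSO. LYZ, the lysozyme of myeloid cells, had 1305, 1229 and 1267 CPM with HSN748 and 738, 786 and 731 CPM with DMSO. Of the 8 markers, 6 were called higher, next to 36.6% of all genes tested. The other 2 did not pass, CD33 at log2 fold change 0.17 (adjusted p = 0.17) and HOXA9 at 0.031 (adjusted p = 0.87). Of 12 markers of other cell types, 4 were measured (KRT18, KRT8, COL1A1 and PECAM1) and 8 were not analysed here. These 4 summed to between 599 and 665 CPM with HSN748 and between 217 and 219 CPM with DMSO, nearly all of it from PECAM1, an adhesion molecule that myeloid cells also carry. PECAM1 was called higher, as were KRT8, an epithelial keratin, at log2 fold change 1.82 (adjusted p = 3.5e-05) and COL1A1, a fibroblast collagen, at 2.61 (adjusted p = 7.0e-05), while KRT18 did not pass. KRT8 had 3.85, 3.11 and 2.97 CPM with HSN748, against 0.954, 0.802 and 1.05 CPM with DMSO, and COL1A1 had 1.61, 1.57 and 1.59 CPM with HSN748, against 0.260, 0.142 and 0.386 CPM with DMSO. The part that these markers play in the results was not tested.

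Synthesis genes were mostly lower and oxidation genes were split. Of the 12 measured synthesis genes, 9 were lower and 3 were higher with HSN748, next to 36.5% and 36.6% of all genes tested, and the median log2 fold change was -0.92, next to 0.01. Beyond a log2 fold change of 1, 6 were lower and 3 were higher, next to 14.9% and 17.0% of all genes. Of the 16 measured oxidation genes, 7 rose, 7 fell and 2 did not pass, with a median of -0.062 that turned positive under 3 other scalings, at 0.062 with the total count, 0.14 with upper-quartile factors and 0.35 with reference genes. None of the 16 was called beyond 1 in either direction with TMM, and their log2 fold changes ran from -0.69 to 0.91. Over all 39 members, 23 were lower, 13 were higher and 3 did not pass, a share called of 92.3%, next to 73.1% of all genes. In bulk RNA, fewer cells expressing a gene and less of its RNA per cell cannot be told apart.

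**Figure D1:**
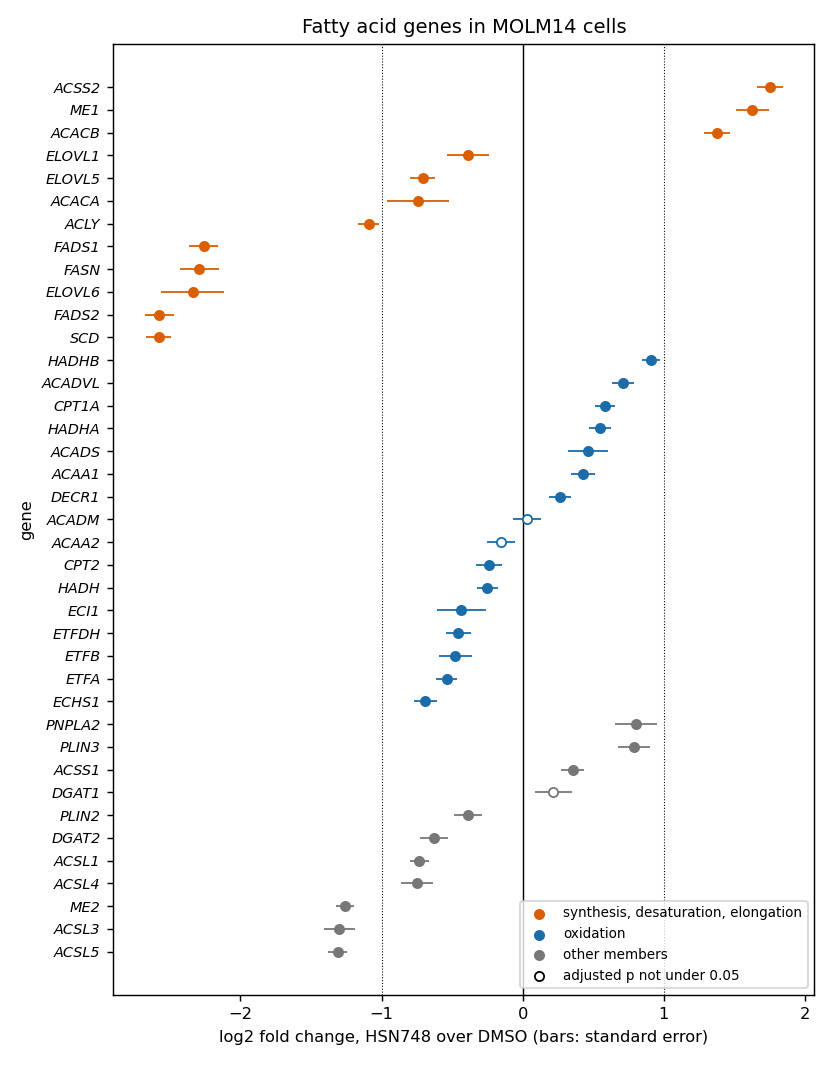
Log2 fold change of HSN748 over DMSO for the 39 measured genes, with bars for the standard error and dotted lines at -1 and 1. The 12 synthesis genes run from -2.58 (SCD) to 1.75 (ACSS2), the 16 oxidation genes from -0.69 (ECHS1) to 0.91 (HADHB), and open circles mark ACADM, ACAA2 and DGAT1, which did not pass an adjusted p of 0.05.

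The groups did not overlap in CPM, meaning that the 3 HSN748 values all lay on 1 side of the 3 DMSO values, for 34 of the 39 members, 13 higher and 21 lower. Among all genes tested this held for 75.4%. The 5 members with overlapping groups were ELOVL1, ACADM, ACAA2, ECI1 and DGAT1. Spread between replicates had a median coefficient of variation over the members of 7.17% with HSN748 and 6.65% with DMSO. It reached 25.8% for ACACA with HSN748 and 25.6% for ECI1 with DMSO.

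RNA of the genes for acetyl-CoA supply changed in opposite directions at the citrate and acetate entries. Enzyme amounts and flux were not examined here. ACLY, which cleaves exported citrate, had 165, 176 and 192 CPM with HSN748, against 378, 377 and 382 CPM with DMSO. All HSN748 cultures were low, and its log2 fold change was -1.09 with SE 0.08 (adjusted p = 2.1e-06). ACSS2, which activates acetate in cytosol and nucleus, had 63.2, 64.3 and 64.9 CPM with HSN748, against 18.9, 17.3 and 20.9 CPM with DMSO. It was higher in all 3 treated cultures with log2 fold change 1.75 (SE 0.09, adjusted p = 3.6e-07). Levels of different genes were compared per kilobase of the tabulated gene length. The ratio of ACSS2 to ACLY per kilobase was 0.496 ± 0.0310 with HSN748 and 0.0687 ± 0.00604 with DMSO (SD, n = 3 each). This ratio and those below were chosen with results of these data known and carry no test.

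The carboxylases were split as well. ACACB, the carboxylase at the mitochondrial surface whose malonyl-CoA restrains CPT1, had 36.6, 35.1 and 38.7 CPM with HSN748, against 14.7, 14.6 and 13.1 CPM with DMSO. It was higher, with log2 fold change 1.38 (SE 0.09, adjusted p = 1.5e-06) with no overlap. ACACA, the cytosolic carboxylase that supplies FASN, had 2.15, 1.33 and 2.20 CPM with HSN748, against 3.68, 2.78 and 3.06 CPM with DMSO. The change in log2 was -0.74 (SE 0.22, adjusted p = 0.014), and the call was lost without DMSO replicate 1 (adjusted p = 0.060), with upper-quartile factors (adjusted p = 0.055) and with reference genes (adjusted p = 0.17). ACACA is listed on a second sequence besides chromosome 17, its tabulated length of 22809 bases counts both, and its level is therefore not compared with that of other single genes. Such doubly listed genes had a median of 7.15 CPM with DMSO (470 genes), and the 12614 genes listed on 1 sequence had 29.6 CPM.

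FASN, the synthase that builds palmitate, had 96.6, 89.1 and 113 CPM with HSN748, against 526, 396 and 542 CPM with DMSO. The highest HSN748 culture lay far under the lowest DMSO culture, and its log2 fold change was -2.29 with SE 0.14 (adjusted p = 1.1e-06). FASN lies on chromosome 17 from 82078338 to 82098236 in the deposited table. ME1, the cytosolic malic enzyme that yields NADPH, had 18.2, 17.3 and 16.7 CPM with HSN748, against 6.04, 5.90 and 4.88 CPM with DMSO. It was higher, with log2 fold change 1.63 (SE 0.11, adjusted p = 2.3e-06). The mitochondrial malic enzyme ME2 moved the other way, with 74.9, 77.3 and 77.0 CPM with HSN748, against 183, 189 and 177 CPM with DMSO. This was a change of -1.26 in log2 (SE 0.06, adjusted p = 3.6e-07), and the ratio of ME1 to ME2 per kilobase was 0.616 ± 0.0367 with HSN748 and 0.0828 ± 0.00738 with DMSO (SD, n = 3 each). ACSS1, which activates acetate inside mitochondria, had 40.5, 41.5 and 45.2 CPM with HSN748, against 33.2, 31.8 and 34.5 CPM with DMSO (log2 fold change 0.35, SE 0.08, adjusted p = 0.0036).

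All 3 desaturases were lower beyond 1. SCD, which inserts the first double bond to make oleate and palmitoleate, was the most abundant synthesis gene with DMSO at 183 CPM per kilobase. Across cultures it had 154, 151 and 176 CPM with HSN748, against 957, 1012 and 910 CPM with DMSO. The groups were far apart, and its log2 fold change was -2.58 with SE 0.09 (adjusted p = 6.4e-08), the largest in size among the members. FADS1, the delta-5 desaturase of polyunsaturated chains, had 8.05, 6.62 and 7.51 CPM with HSN748, against 34.7, 37.5 and 34.3 CPM with DMSO. It stood at -2.26 in log2 fold change (SE 0.10, adjusted p = 2.0e-07). FADS2, the delta-6 desaturase that acts before it, had 7.54, 8.77 and 8.70 CPM with HSN748, against 50.8, 46.0 and 52.3 CPM with DMSO. The change in log2 was -2.57 (SE 0.10, adjusted p = 9.4e-08), close to that of SCD.

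FADS1 and FADS2 lie head to head on chromosome 11 on opposite strands, and the tabulated genes share 800 bases. Exons of both fall in that stretch, and the strand setting of the counting is not given in the sources used here, so that reads there could not be assigned to 1 of them. FADS3, a further member of the family, lies 6172 bases beyond FADS2 on the same chromosome. FADS3 had 6.30, 6.03 and 5.25 CPM with HSN748, against 1.86, 1.16 and 1.96 CPM with DMSO. It was higher, with log2 fold change 1.82 (SE 0.20, adjusted p = 4.5e-05), opposite to its neighbors, and the ratio of FADS3 to FADS2 per kilobase was 1.42 ± 0.236 with HSN748 and 0.0662 ± 0.0137 with DMSO (SD, n = 3 each). SCD5, the second human stearoyl-CoA desaturase gene, had 21.0, 22.3 and 24.0 CPM with HSN748 and 21.1, 22.0 and 19.9 CPM with DMSO, so that the groups overlapped (log2 fold change 0.093, SE 0.091, adjusted p = 0.37).

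Elongases were lower to unequal degrees, except that ELOVL1 turned to 0.035 with reference genes. ELOVL6, which lengthens palmitate to stearate, had 0.373, 0.531 and 0.424 CPM with HSN748, against 2.41, 2.27 and 2.01 CPM with DMSO. Low in both groups, it had log2 fold change -2.34 (SE 0.22, adjusted p = 1.7e-05). ELOVL5, which lengthens polyunsaturated chains, had 188, 196 and 186 CPM with HSN748, against 315, 342 and 276 CPM with DMSO (log2 fold change -0.71, SE 0.09, adjusted p = 8.7e-05). ELOVL1, which lengthens very long saturated chains, had 38.4, 33.4 and 41.3 CPM with HSN748, against 47.0, 40.2 and 60.8 CPM with DMSO. These groups overlapped, its log2 fold change was -0.39 with SE 0.15 (adjusted p = 0.044), and the call was lost when any culture but DMSO replicate 2 was left out (adjusted p between 0.063 and 0.17).

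**Figure D2:**
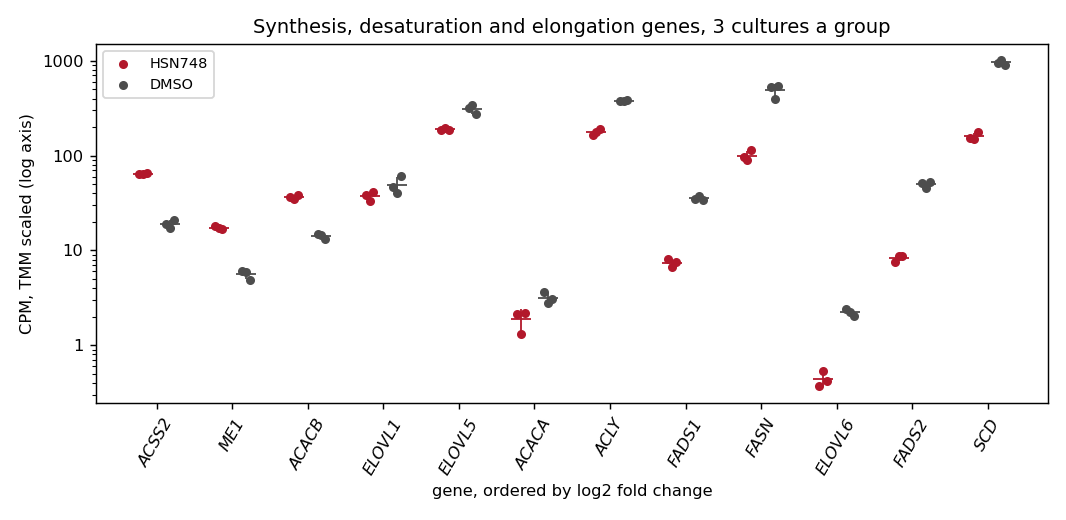
CPM of the 12 synthesis, desaturation and elongation genes on a log axis, with 1 point per culture (3 with HSN748, 3 with DMSO) and bars for the mean and SD. SCD lies between 151 and 176 CPM with HSN748 and between 910 and 1012 CPM with DMSO, ACSS2 is reversed with 63.2 to 64.9 CPM against 17.3 to 20.9 CPM, and ELOVL1 is the gene with overlapping groups.

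Upstream sequences of members that moved together were taken from the RefSeq annotation of GRCh38.p14, which held entries for 35 of the 41 listed genes, ELOVL7 and ECI2 among them. The 250 bases before each start were searched on both strands for TCACNCCAC, a sterol regulatory element bound by SREBP, for the CCAAT box CCAAT, for the GC box GGGCGG and for a direct repeat bound by PPAR with its partner RXR, AGGTCA followed by any base and AGGTCA again. SCD and ACLY are shown as lower genes with both boxes, FADS1 as a lower gene with GC boxes only, and the stretch before HADHA because that gene and its neighbor HADHB share it. Each is printed 5′ to 3′ on the gene's strand, and capitals mark CCAAT and GGGCGG or their reverse complements, of which the 115 bases printed before HADHA hold none, while the 250 searched hold 1 GGGCGG.
SCD, chr10:100346983-100347232, plus strand: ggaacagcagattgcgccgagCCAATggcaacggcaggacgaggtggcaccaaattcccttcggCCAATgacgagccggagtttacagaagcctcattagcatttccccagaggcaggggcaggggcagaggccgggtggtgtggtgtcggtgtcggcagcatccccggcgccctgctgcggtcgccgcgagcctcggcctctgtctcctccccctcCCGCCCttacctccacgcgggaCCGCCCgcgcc
ACLY, chr17:41919023-41919272, minus strand: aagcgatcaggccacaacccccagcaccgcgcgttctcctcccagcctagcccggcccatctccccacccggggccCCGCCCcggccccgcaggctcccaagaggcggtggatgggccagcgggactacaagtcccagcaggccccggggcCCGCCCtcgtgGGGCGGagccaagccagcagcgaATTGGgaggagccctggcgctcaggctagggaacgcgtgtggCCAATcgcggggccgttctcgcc
FADS1, chr11:61817004-61817253, minus strand: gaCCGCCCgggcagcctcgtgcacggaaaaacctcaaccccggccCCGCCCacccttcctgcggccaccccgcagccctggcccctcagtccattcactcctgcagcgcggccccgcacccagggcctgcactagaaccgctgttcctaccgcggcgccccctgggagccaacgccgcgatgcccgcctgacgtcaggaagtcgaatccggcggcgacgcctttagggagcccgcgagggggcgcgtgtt
HADHA, chr2:26244633-26244747, minus strand: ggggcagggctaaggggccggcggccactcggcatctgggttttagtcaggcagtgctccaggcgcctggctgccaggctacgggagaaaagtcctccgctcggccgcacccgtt

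The CCAAT box was found before 5 of the 8 lower synthesis genes with an entry (ACACA, ACLY, ELOVL1, ELOVL5 and SCD), before 3 of 14 oxidation genes with an entry, ECI2 included (ETFA, ETFB and HADH) and before 37.0% of 27305 genes in the annotation. Over all 35 members with an entry it stood before 14 (40.0%), among them ACSS2 and ACACB, which were higher. In SCD the CCAAT boxes begin 229 and 186 bases before the start. In ACLY they begin 65 and 23 bases before the start used for the printed sequence, and 136 and 94 bases before its other annotated start. The GC box stood before 7 of the 8 lower synthesis genes, 12 of the 14 oxidation genes and 46.2% of all. It stood before 31 of the 35 members (88.6%), the higher genes ACSS2, ACACB and ME1 among them. The 27305 annotated genes are an unlike background, since the count table holds 13244, and shares among measured genes were not computed. A gene with several annotated starts counted if any of its windows held the motif. The sterol element was found before ACSL1 and PNPLA2 among all members, before 0 of the 8 lower synthesis genes and before 1.09% of all genes. The direct repeat was found before 0 members and before 0.0220% of all genes. A match describes letters in this window, and a missing one says nothing of sites elsewhere. FASN, DGAT1, DGAT2, ACAA1, DECR1 and ETFDH had no entry.

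All 4 acyl-CoA synthetases, which activate long chains for storage, membranes or oxidation, were lower. ACSL3, found on lipid droplets and the endoplasmic reticulum, had 62.2, 66.0 and 64.7 CPM with HSN748, against 157, 183 and 134 CPM with DMSO. This was a change of -1.30 in log2 (SE 0.11, adjusted p = 7.7e-06). ACSL5, found at mitochondria and the endoplasmic reticulum, had 47.4, 45.6 and 48.8 CPM with HSN748, against 117, 122 and 113 CPM with DMSO. It stood at -1.31 in log2 fold change (SE 0.07, adjusted p = 4.4e-07). ACSL4, which prefers arachidonate, had 103, 116 and 104 CPM with HSN748, against 178, 211 and 154 CPM with DMSO (log2 fold change -0.75, SE 0.11, adjusted p = 3.3e-04), and did not pass with reference genes (adjusted p = 0.052). ACSL1 had 114, 112 and 111 CPM with HSN748, against 188, 195 and 175 CPM with DMSO (log2 fold change -0.73, SE 0.07, adjusted p = 1.5e-05). None of the 4 had overlapping groups, and exons of ACSL4 and ACSL5 overlap those of other genes in the table.

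At the carnitine shuttle RNA of the entry step was higher. CPT1A, which forms acylcarnitines at the outer membrane and is the step that malonyl-CoA inhibits, had 204, 202 and 228 CPM with HSN748, against 137, 146 and 140 CPM with DMSO. The change in log2 was 0.58 (SE 0.07, adjusted p = 9.9e-05). SLC25A20, the carrier that passes acylcarnitines across the inner membrane, is no member of the list and had 27.7, 26.8 and 28.0 CPM with HSN748, against 13.1, 11.9 and 12.3 CPM with DMSO. It was higher, with log2 fold change 1.14 (SE 0.09, adjusted p = 3.5e-06), above the value of each oxidation member. CPT2, which re-forms acyl-CoA inside, had 19.9, 21.1 and 23.2 CPM with HSN748, against 25.9, 23.6 and 26.2 CPM with DMSO. The groups lay side by side with no overlap, and its log2 fold change was -0.24 with SE 0.09 (adjusted p = 0.044), which turned to 0.18 with reference genes (adjusted p = 0.15). The call was also lost without DMSO replicate 1 (adjusted p = 0.13), DMSO replicate 3 (0.085), HSN748 replicate 7 (0.20) and HSN748 replicate 8 (0.14). Exons of CPT2 overlap those of CZIB.

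The ratio of CPT1A to FASN per kilobase, the entry of oxidation over the end of synthesis, was 3.25, 3.49 and 3.10 with HSN748, against 0.402, 0.568 and 0.399 with DMSO. Summed CPM per kilobase of the 16 oxidation genes, divided by that of the 12 synthesis genes, was 3.85, 3.70 and 3.61 with HSN748, against 1.30, 1.32 and 1.37 with DMSO. SCD made up much of the DMSO sum, and without it the quotient was 4.59, 4.40 and 4.36 with HSN748, against 2.13, 2.25 and 2.19 with DMSO. The oxidation sum itself was 696, 670 and 703 CPM per kilobase with HSN748, against 612, 612 and 631 with DMSO, so that most of the difference in the quotient lay in the synthesis sum, at 181, 181 and 195 with HSN748, against 469, 465 and 461 with DMSO.

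Of the acyl-CoA dehydrogenases, which open each round of oxidation, 2 of 3 were higher. ACADVL, for very long chains, had 270, 283 and 269 CPM with HSN748, against 181, 152 and 169 CPM with DMSO. This was a change of 0.71 in log2 (SE 0.08, adjusted p = 4.8e-05), and it lies against DLG4 with overlapping exons. ACADS, for short chains, had a log2 fold change of 0.46 (adjusted p = 0.015), which did not pass without DMSO replicate 1 or without HSN748 replicate 9 (adjusted p = 0.053 for each). ACADM, for medium chains, had 154, 153 and 142 CPM with HSN748 and 140, 169 and 131 CPM with DMSO, with overlap and log2 fold change 0.029 (SE 0.10, adjusted p = 0.80). The sign turned without DMSO replicate 1 (-0.0057) and without DMSO replicate 3 (-0.044). ACADM passed as higher with upper-quartile factors (0.24, adjusted p = 0.049) and with reference genes (0.44, adjusted p = 0.0081).

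The later steps of the cycle divided by enzyme. HADHA and HADHB, the subunits of the mitochondrial trifunctional protein, which handles long chains, were both higher. HADHB, which holds the thiolase, had 224, 217 and 219 CPM with HSN748, against 116, 121 and 114 CPM with DMSO. It had the largest change among the oxidation genes (log2 fold change 0.91, SE 0.06, adjusted p = 2.4e-06). HADHA, which holds the hydratase and dehydrogenase, was higher at log2 fold change 0.55 (SE 0.08, adjusted p = 2.1e-04), with 328, 329 and 378 CPM with HSN748, against 229, 242 and 236 CPM with DMSO. The pair lies head to head on chromosome 2 with tabulated starts 116 bases apart, the stretch printed above. Their ratio per kilobase, HADHB over HADHA, was 0.885, 0.852 and 0.752 with HSN748, against 0.658, 0.649 and 0.624 with DMSO. ACAA1, the peroxisomal thiolase, was higher at log2 fold change 0.43 (adjusted p = 0.0017).

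The enzymes for shorter chains at these same steps were not called higher with TMM. ECHS1, the short-chain hydratase, had 57.7, 51.0 and 59.7 CPM with HSN748, against 89.2, 88.2 and 94.0 CPM with DMSO. Its log2 fold change of -0.69 (SE 0.08, adjusted p = 6.1e-05) was the largest decrease among the oxidation genes. HADH, the dehydrogenase for medium and short chains, was lower at log2 fold change -0.25 (adjusted p = 0.014), a value that turned to 0.16 with reference genes (adjusted p = 0.13). Without DMSO replicate 1 or HSN748 replicate 8 it did not pass (adjusted p = 0.055 and 0.084). ACAA2, the matrix thiolase, had 35.4, 29.2 and 31.4 CPM with HSN748 and 33.2, 35.6 and 37.9 CPM with DMSO, with overlap and log2 fold change -0.15 (SE 0.10, adjusted p = 0.18). It turned to 0.053 with upper-quartile factors and to 0.26 with reference genes, where it passed as higher (adjusted p = 0.032). Among the auxiliary enzymes that handle double bonds, ECI1, an enoyl-CoA isomerase, had 26.4, 24.3 and 29.6 CPM with HSN748 and 35.0, 27.7 and 46.1 CPM with DMSO. Its groups overlapped, and the log2 fold change of -0.43 (SE 0.17, adjusted p = 0.046) did not pass when any culture but DMSO replicate 2 was left out (adjusted p between 0.066 and 0.16). DECR1, the dienoyl-CoA reductase, had 136, 118 and 118 CPM with HSN748, against 100.4, 107 and 103 CPM with DMSO (log2 fold change 0.26, SE 0.08, adjusted p = 0.014), and did not pass without DMSO replicate 1 (adjusted p = 0.065).

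Electron transfer flavoprotein carries electrons from the acyl-CoA dehydrogenases to its oxidoreductase ETFDH, which passes them to ubiquinone. All 3 genes were lower with no overlap, though 2 of 3 acyl-CoA dehydrogenases were higher. ETFA had 154, 135 and 137 CPM with HSN748, against 201, 207 and 212 CPM with DMSO (log2 fold change -0.54, SE 0.07, adjusted p = 1.7e-04). ETFB was lower at log2 fold change -0.48 (adjusted p = 0.0051), a call lost with upper-quartile factors (-0.27, adjusted p = 0.068). ETFDH had 27.3, 28.1 and 30.3 CPM with HSN748, against 38.1, 42.2 and 37.1 CPM with DMSO (log2 fold change -0.46, SE 0.09, adjusted p = 0.0013), and it shares exon positions with PPID. The ratio of ETFA to ACADVL per kilobase, which no scaling of the libraries changes, was 0.629, 0.525 and 0.563 with HSN748, against 1.22, 1.50 and 1.38 with DMSO. With reference genes the 3 genes remained below 0, at -0.12, -0.060 and -0.043, and none passed.

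**Figure D3:**
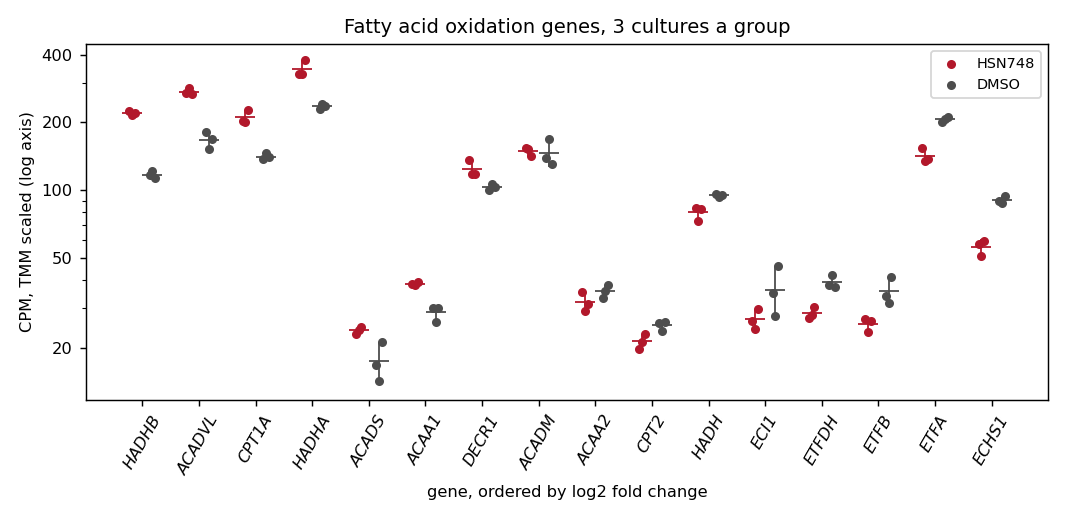
CPM of the 16 oxidation genes on a log axis, with 1 point per culture (3 with HSN748, 3 with DMSO) and bars for the mean and SD, ordered by log2 fold change. The groups are apart for HADHB, ACADVL, CPT1A, HADHA, ACADS, ACAA1 and DECR1 on the left and for CPT2, HADH and the genes of electron transfer flavoprotein and ECHS1 on the right, and they overlap for ACADM, ACAA2 and ECI1.

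Lipid droplet and triglyceride genes were split. PNPLA2, the first lipase of stored triglyceride, had 47.1, 45.8 and 51.8 CPM with HSN748, against 31.5, 21.0 and 30.5 CPM with DMSO (log2 fold change 0.80, SE 0.15, adjusted p = 0.0011). PLIN3, a droplet coat protein also found in the cytosol, was higher at log2 fold change 0.79 (adjusted p = 2.7e-04). PLIN2, the coat protein of most non-adipose cells, was lower at log2 fold change -0.39 (adjusted p = 0.0073) and turned to 0.027 with reference genes. DGAT1 and DGAT2 both add the last acyl chain of triglyceride. DGAT2 was lower at log2 fold change -0.63 (adjusted p = 4.0e-04), a call lost with reference genes (adjusted p = 0.077). DGAT1 had 40.7, 36.0 and 40.1 CPM with HSN748 and 36.2, 26.6 and 37.8 CPM with DMSO, with overlap and log2 fold change 0.22 (SE 0.13, adjusted p = 0.17). It passed as higher with upper-quartile factors (adjusted p = 0.021), the total count (adjusted p = 0.040) and reference genes (adjusted p = 5.6e-04), and without DMSO replicate 3 (adjusted p = 0.040). DGAT1 is listed on a second sequence as well as on chromosome 8, and its exons overlap those of HSF1.

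Direction on the log2 scale is relative to the scaling. The plot of medians by scaling shows the synthesis median below 0 with each of the 5 scalings, and the oxidation median following that of all genes. With reference genes, of which 6 were themselves lower and 1 was higher under TMM, all genes had a median of 0.42, the synthesis genes of -0.51 and the oxidation genes of 0.35. A scaling shifts all genes by about the same amount, so that it leaves the distance between these medians nearly fixed. Calls lost with upper-quartile factors were those of ACACA, ELOVL1, CPT2, HADH, ECI1, ETFB and PLIN2, and calls lost with the total count were those of ELOVL1, CPT2, HADH and ECI1.

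**Figure D4:**
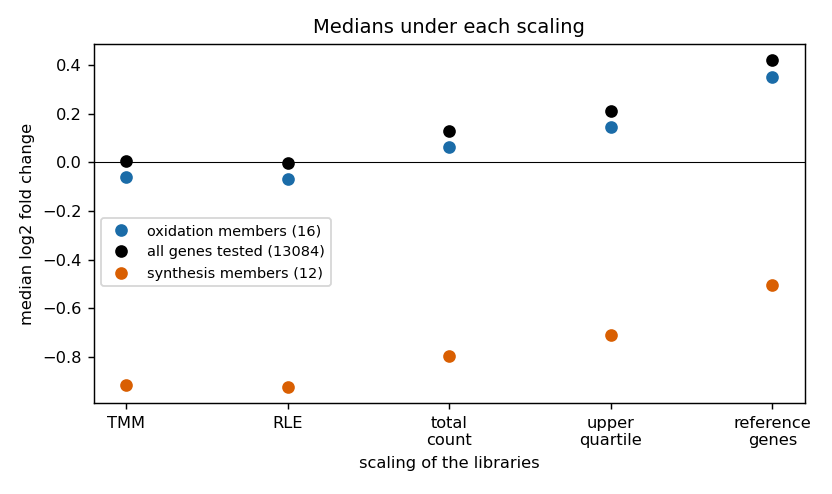
Median log2 fold change of HSN748 over DMSO for the 16 oxidation genes, all 13084 genes tested and the 12 synthesis genes under 5 scalings of the libraries. The synthesis median is -0.92 with TMM and -0.51 with reference genes, and the oxidation median is -0.062 with TMM, -0.070 with RLE factors and 0.35 with reference genes, next to 0.01 with TMM and 0.42 with reference genes for all genes.

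Regulators of these pathways were read from a further list, chosen like the other lists with results of these data known. SREBF1 had 31.7, 31.0 and 34.6 CPM with HSN748, against 95.6, 73.0 and 97.8 CPM with DMSO. It stood at -1.45 in log2 fold change (SE 0.12, adjusted p = 6.1e-06). INSIG1, which holds SREBP in the endoplasmic reticulum and is itself an SREBP target, had 40.5, 44.8 and 44.2 CPM with HSN748, against 123, 133 and 110 CPM with DMSO (log2 fold change -1.50, SE 0.09, adjusted p = 8.8e-07). SREBF2, whose product drives mainly cholesterol genes, moved the other way, with 173, 179 and 196 CPM with HSN748, against 135, 123 and 145 CPM with DMSO (log2 fold change 0.44, SE 0.08, adjusted p = 0.0012). The ratio of SREBF2 to SREBF1 per kilobase was 4.92 ± 0.143 with HSN748 and 1.34 ± 0.125 with DMSO (SD, n = 3 each). Exons of SREBF1 overlap those of RAI1, and exons of SREBF2 those of SREBF2-AS1.

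PPARA had 27.3, 27.3 and 26.2 CPM with HSN748, against 13.5, 13.8 and 11.3 CPM with DMSO, and was higher, with log2 fold change 1.06 (SE 0.10, adjusted p = 1.5e-05). PPARD, a related receptor that also drives oxidation genes, was higher at log2 fold change 0.42 (SE 0.08, adjusted p = 0.0015). PPARGC1A, a coactivator of both, had 0.490, 0.824 and 0.505 CPM with HSN748, against 0.121, 0.0472 and 0.0551 CPM with DMSO (log2 fold change 2.86, SE 0.47, adjusted p = 5.0e-04) at a very low level. PPARGC1B, its family member, was far more abundant and lower, with 83.2, 79.7 and 78.2 CPM with HSN748, against 95.5, 97.3 and 92.0 CPM with DMSO (log2 fold change -0.24, SE 0.07, adjusted p = 0.0091). MLXIPL was not analysed here. Of 22 measured regulators, 7 rose, 6 fell and 9 did not pass, with a median of 0.077. Called regulators were 59.1% of those measured, next to 73.1% of all genes tested.

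Neighboring steps were counted in 8 more lists. In the supply of cytosolic citrate, NADPH and CoA, 2 of 8 genes were higher and 5 were lower, 87.5% called next to 73.1% of all genes, with a median of -0.59. AASDHPPT, which attaches the phosphopantetheine arm to FASN, was lower at log2 fold change -0.89 (adjusted p = 3.1e-05), and COASY, of CoA synthesis, at -0.68 (adjusted p = 1.2e-04). PANK3, a kinase that opens CoA synthesis, had 173, 193 and 162 CPM with HSN748, against 285, 332 and 212 CPM with DMSO (log2 fold change -0.65, SE 0.15, adjusted p = 0.0039).

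Mitochondria hold a separate fatty acid synthesis pathway, which makes the lipoate precursor. Of its 5 measured genes, 3 were lower and 1 was higher, 80.0% called next to 73.1% of all genes, with a median of -0.96. MECR, its enoyl reductase, had 12.4, 12.1 and 12.1 CPM with HSN748, against 36.5, 35.1 and 41.8 CPM with DMSO (log2 fold change -1.63, SE 0.09, adjusted p = 7.9e-07). NDUFAB1, its acyl carrier protein and a subunit of complex I, was lower at log2 fold change -1.28 (adjusted p = 1.1e-04), and MCAT, its malonyl transferase, at -0.96 (adjusted p = 6.4e-04). In chain elongation and desaturation, 2 of 10 further genes were higher and 4 were lower, 60% called next to 73.1% of all genes. ELOVL3 had 1.07, 0.850 and 0.707 CPM with HSN748, against 3.85, 3.75 and 5.43 CPM with DMSO (log2 fold change -2.31, SE 0.23, adjusted p = 2.3e-05), and HACD3, a dehydratase of the elongation cycle, was lower at log2 fold change -1.07 (adjusted p = 1.9e-06).

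Uptake and binding genes were the list with the widest range. Of 8 measured genes, 5 were higher and 3 were lower, 100% called next to 73.1% of all genes, with a median of 1.23. CD36, a fatty acid and scavenger receptor of myeloid cells, had 373, 371 and 348 CPM with HSN748, against 77.9, 88.6 and 66.1 CPM with DMSO (log2 fold change 2.23, SE 0.11, adjusted p = 2.9e-07). FABP3, a cytosolic binding protein, had 6.05, 5.71 and 5.03 CPM with HSN748, against 0.347, 0.307 and 0.276 CPM with DMSO (log2 fold change 4.14, SE 0.19, adjusted p = 2.1e-07). FABP5, its family member, moved the other way with 16.1, 14.2 and 14.5 CPM with HSN748, against 84.6, 92.7 and 127 CPM with DMSO (log2 fold change -2.76, SE 0.16, adjusted p = 6.4e-07). CD36 was higher together with the myeloid marker sum given above, most of which came from LYZ and FLT3. What that sum shares with the change of CD36 was not tested.

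Of 12 tested genes in a further list for mitochondrial oxidation, 5 were higher and 5 were lower, 83.3% called next to 73.1% of all genes. This list is broad and not limited to fatty acid breakdown, so its split does not describe that pathway alone. The 5 lower genes were ACAT1 (log2 fold change -0.90), HSD17B10 (-0.76), IVD (-0.40), ACAD9 (-0.26) and ECHDC1 (-0.23). Beside SLC25A20, CPT1B, the muscle form of the entry enzyme, was higher at log2 fold change 1.69 (adjusted p = 0.0038) with 1.66, 1.09 and 1.70 CPM with HSN748, against 0.746, 0.283 and 0.276 CPM with DMSO. ACAD11 was higher at log2 fold change 1.21 (adjusted p = 2.4e-04). In the list for peroxisomal oxidation, 7 of 12 genes were higher and 2 were lower, 75% called next to 73.1% of all genes, with a median of 0.30. EHHADH, a peroxisomal enzyme with hydratase and dehydrogenase activity, had 7.07, 8.10 and 7.59 CPM with HSN748, against 4.72, 6.09 and 4.19 CPM with DMSO (log2 fold change 0.60, SE 0.15, adjusted p = 0.0066). ABCD4, counted in this list though not a peroxisomal importer of fatty acids, was higher at log2 fold change 0.86 (adjusted p = 8.4e-05). ABCD3, an importer of branched and long chains, was lower at log2 fold change -0.83 (adjusted p = 2.0e-05).

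Glycerolipid assembly had 4 of 13 genes higher and 6 lower, 76.9% called next to 73.1% of all genes, with a median of -0.011. AGPAT5, an acyltransferase that makes phosphatidate, was lower at log2 fold change -1.69 (adjusted p = 1.5e-06), while AGPAT4 was higher at log2 fold change 1.05 (adjusted p = 1.2e-05) and LPIN3, a phosphatidate phosphatase at low level, at 2.15 (adjusted p = 4.5e-04). Of 8 further tested droplet and lipolysis genes, 4 were higher and 2 were lower, 75% called next to 73.1% of all genes. MGLL, which cleaves the last acyl chain from monoacylglycerol, was higher at log2 fold change 1.30 (adjusted p = 3.7e-04), PLIN5 was higher at log2 fold change 0.94 (adjusted p = 0.010), and CIDEB, a droplet protein, was lower at log2 fold change -1.48 (adjusted p = 2.9e-06).

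**Figure D5:**
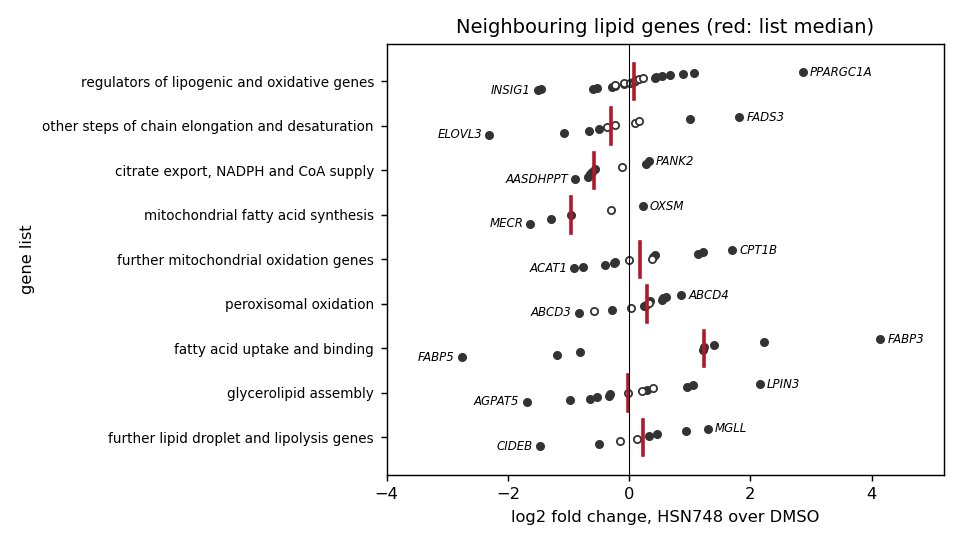
Log2 fold change of HSN748 over DMSO for the measured genes of 9 neighboring lists, with filled points for genes called at an adjusted p under 0.05, open points for the others and a red line at each list median. Medians lie between -0.96 for mitochondrial fatty acid synthesis and 1.23 for uptake and binding, and each list holds called genes on both sides of 0.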

How the data were processed

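RNA was extracted with TRIzol and libraries were made with a low-input kit from New England Biolabs. Whole-number counts per gene for the 6 cultures were deposited by the authors, made according to their processing notes with bcl2fastq and STAR. For versions, counting program, annotation, strand setting and genome build, the sources used here give nothing. For 25 of the 39 members the lowest tabulated position equals that in RefSeq GRCh38.p14. For genes on the minus strand this position is the end of the gene. Among further genes named, exons of KRT8 and KRT18 overlap each other. Exons also overlap those of another gene for HOXA9, AASDHPPT, CPT1B, ACAD11 and CIDEB. AGPAT5 and CIDEB are also listed on a second sequence. The deposited table also holds log CPM and log RPKM values, gene lengths, and the authors' own fold changes, p-values and FDR. Of these only the gene lengths were used.

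Counts were tested with edgeR 4.0.16 (R 4.3.3). filterByExpr removed 160 genes and kept 13084, libraries were scaled by TMM, and the quasi-likelihood F test was fitted with treatment as the only term, with Benjamini-Hochberg adjustment over all genes. SE is the log2 fold change divided by the square root of F. The biological coefficient of variation was 11.2%. Replicates differed by more than sampling noise and all 6 entered the fit. Chi-square per degree of freedom between pairs of cultures lay between 23.4 and 24.7 with HSN748. With DMSO it was 22.7 for replicates 1 and 2, 51.9 for 1 and 3 and 89.1 for 2 and 3, so that DMSO replicate 3 stood apart. An exact permutation test of 3 against 3 cannot go below p = 0.1 and is not given. In simulated data of this size the test called 86% of genes with a log2 fold change of 0.8, 100% of those at 2 and 0.119% of unchanged genes. The simulation held 100 genes at each of these changes and 12631 unchanged ones. In the real data 73.1% of genes were called, so these rates need not hold there.

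The members and all gene lists were chosen with earlier results of these data known. Every measured member is named with its log2 fold change. Members called beyond a log2 fold change of 1, and of the rest the largest and smallest change of each role, are given with each culture's CPM, as are others on which a statement rests. From each further list up to 3 called genes with the largest change are named, and besides them SREBF1, SREBF2, PPARA, PPARD and SLC25A20. SCD5 was named in addition, after its values were seen, as were LYZ, FLT3, CD33, HOXA9, PPARGC1B and the lower genes of the further mitochondrial oxidation list. A few genes of the further lists were left out of them and are not reported here.

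Alternatives were DESeq2 1.42.0, limma-voom (limma 3.58.1), RLE, upper-quartile and total-count scaling, scaling to 11 reference genes, no filter, at least 5 CPM in 3 cultures, leaving out each culture, and an adjusted p under 0.01. Python 3.11.15, pandas 2.3.3 and matplotlib 3.10.9 served for motifs, tables and figures.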

Additional observations from a re-analysis of the deposited data

How the results depend on the processing

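Of the 39 members, 23 kept their call and 33 their direction under each of the 15 alternatives that tested them. The filter of 5 CPM left ACACA and ELOVL6 untested. DESeq2, RLE factors and no filter changed no member's call. The synthesis median was -0.71 with upper-quartile factors, -0.79 with the total count and -0.51 with reference genes, and the oxidation median was 0.14, 0.062 and 0.35 under the same settings. The number of oxidation genes called lower, 7 with TMM, was 3 with upper-quartile factors, 4 with the total count, 1 with reference genes, 4 with the filter of 5 CPM and 4 at an adjusted p under 0.01. It ranged from 4 to 7 when single cultures were left out, with 4 without DMSO replicate 1 and 4 without HSN748 replicate 8. The number called higher, 7 with TMM, was 8 with upper-quartile factors, 7 with the total count and 9 with reference genes. It was 7 with the filter of 5 CPM, 5 at an adjusted p under 0.01 and 5 to 7 with single cultures left out. Oxidation genes called higher beyond 1, 0 with TMM, numbered 1 with upper-quartile factors, 1 with the total count and 2 with reference genes (HADHB and ACADVL). Among all genes, 3558 were higher and 1129 lower beyond 1 with reference genes, and the filter of 5 CPM, which tests fewer genes, left 2729 beyond 1, 1334 of them higher. Reversed values were ELOVL1 at 0.035, CPT2 at 0.18, HADH at 0.16, ACAA2 at 0.26 and PLIN2 at 0.027 with reference genes, ACAA2 at 0.053 with upper-quartile factors, and ACADM at -0.0057 without DMSO replicate 1 and -0.044 without DMSO replicate 3. The cause was not tested. ELOVL1 and ECI1 were lost with limma-voom (adjusted p = 0.054 and 0.063). No paired analysis was possible because the groups share no replicate number. Counts give shares of the RNA sequenced, and no measure of RNA per cell was used here.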
